A study of Rattus norvegicus with 12 samples.

Results

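The genes that encode the subunits of the mitochondrial respiratory chain and of ATP synthase were followed in the ventral prostate of the rat after 3 treatments described as androgen deprivation. Members were the genes whose symbol begins with Nduf, Uqcr or Atp5, or with Cox followed by a digit from 4 to 8, and that had a probe set annotated with that symbol alone. This gave 76 genes, read by 88 probe sets, of 14506 genes and 29214 probe sets in the whole table. Where a gene had several probe sets, as 11 did, the brightest by its mean over the 12 arrays stood for it. The members comprised 32 subunits of complex I, 7 of complex III, 11 of complex IV and 15 of ATP synthase, its inhibitor Atp5if1, 3 complex I assembly factors, 5 tissue-restricted isoforms of complex IV and 2 symbols of pseudogenes. Subunits encoded in mitochondrial DNA were not analysed here.

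All rats were male Wistar animals treated at 90 days of age, and the gland was taken 3 days later. Castrated rats had both testes removed under anaesthesia with xylazine at 10 mg/kg and ketamine at 150 mg/kg. Estradiol rats were intact and were given 17β-estradiol once, at 25 mg/kg in corn oil, which the labels call a high dose. Combined rats had the surgery, with the same anaesthetics, and the same estradiol. Control rats were intact and received corn oil alone. Each group had 3 arrays. The labels do not say whether rats that were only castrated received corn oil, and anaesthetics are named for the operated groups only, so that surgery, anaesthesia and loss of the testes cannot be told apart. They do not tie arrays to animals either. The design text names 48 rats for the study and does not say how they relate to the 12 arrays or whether an array holds 1 animal or a pool, so the spread behind the p-values is that between arrays and may be technical. RNA came from bulk tissue, in which fewer cells of a type and less RNA per cell cannot be told apart.

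As background, complexes I, III and IV pass electrons from NADH to oxygen and pump protons across the inner mitochondrial membrane, and ATP synthase uses the return of these protons to make ATP. Complex I has catalytic core subunits, which carry the flavin and iron-sulfur clusters, and many accessory subunits around them. The nuclear genes of these complexes are known in mammals to be transcribed under NRF1, the ETS family factor GABP and YY1. The ventral prostate is a secretory gland that depends on testicular androgen and is known for making and secreting citrate, a metabolite that most tissues oxidize in the citric acid cycle.

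Array values were taken to be on a log2 scale, and each difference is given as log2 ± SE, where 1 unit is a change of 2-fold. The members were read by bright probe sets, with 54 of 76 in the brightest 20% of all genes by mean value. Estradiol arrays 1 and 2 stood apart in how widely their values spread. The SD of values within the array was 1.93 and 2.01 there, and 2.24 to 2.30 on the others. The brightest 20% of genes stood a median of -0.65 and -0.25 from the control mean on them, and 0.02 on estradiol array 3. Array quality weights from limma, which are lower for arrays that depart more from their group, were 0.088, 0.69 and 0.19 for estradiol arrays 1, 2 and 3, 0.35 for castrated array 2 and 1.05 to 4.84 for the other 8, so estradiol array 3 departed from its group as well. The highest correlation between any pair of arrays was 0.995. Scgb2a1, a component of prostatein, the main secretory protein of the ventral lobe, lay at 12.47 to 12.73 in castrated, 12.46 to 12.72 in estradiol and 12.68 to 12.72 in combined animals, against 12.84 to 12.88 in controls. Probasin (Pbsn), another secreted product whose gene depends on androgen, lay at 4.37 to 4.96 in castrated, 4.82 to 9.71 in estradiol and 4.88 to 7.45 in combined animals, against 10.50 to 11.63 in controls.

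More respiratory chain and ATP synthase genes fell than the share of all genes that did, under each of the 3 treatments, and none rose. After castration 11 of 76 members fell (14.5%) and 0 rose, where 2.36% of all genes fell and 3.17% rose. After estradiol 15 fell (19.7%) and 0 rose, where 5.48% of all genes fell and 2.51% rose. After the combined treatment 9 fell (11.8%) and 0 rose, where 2.21% of all genes fell and 2.12% rose. The falls were moderate, 1.44- to 2.59-fold after castration, 1.48- to 3.93-fold after estradiol and 1.43- to 2.79-fold after both, and the arrays of every member that fell lay wholly below those of the controls. The median member stood at -0.38 after castration, -0.40 after estradiol and -0.35 after both, where the median of all genes stood at 0.01, 0.07 and 0.04. Calls were made by limma with all 12 arrays in the fit, at a Benjamini-Hochberg adjusted p of 0.05 over all genes. That fit pools the spread of all groups. The median SD of a member was 0.40 among estradiol arrays, against 0.17 among castrated, 0.12 among combined and 0.10 among control arrays. Fits of only the 2 groups compared gave 31, 3 and 40 falls, beside 12.9%, 1.36% and 19.8% of all genes called either way. The counts therefore do not rank the treatments. The 3 comparisons share the same control arrays and are therefore not independent of each other.

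The direction reached well beyond the members that passed the test. Of 76 members, 63 had a lower mean after castration, 62 after estradiol and 62 after both. Of all 14506 genes 7019, 6288 and 6287 had a lower mean, and of the 2901 genes of the brightest 20% 1350, 2180 and 1438. All 3 treated arrays lay below all 3 control arrays for 42 members after castration (55.3%, against 13.7% of all genes), for 34 after estradiol (44.7%, against 15.1%) and for 45 after both (59.2%, against 15.8%). Arrays lay wholly above the controls for 2 members after castration and 1 after estradiol, and for none after both, where the shares of all genes were 18.8%, 12.3% and 21.1%. Among the 2901 genes of the brightest 20%, 5.21% fell after castration, 12.0% after estradiol and 4.89% after both. In these genes arrays lay wholly below the controls for 22.3%, 33.3% and 30.4%, and the median difference was 0.03 after castration, -0.31 after estradiol and 0.01 after both. Under estradiol the median of bright genes at large was thus close to that of the members, and under the other treatments it was near 0.

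**Figure D1:**
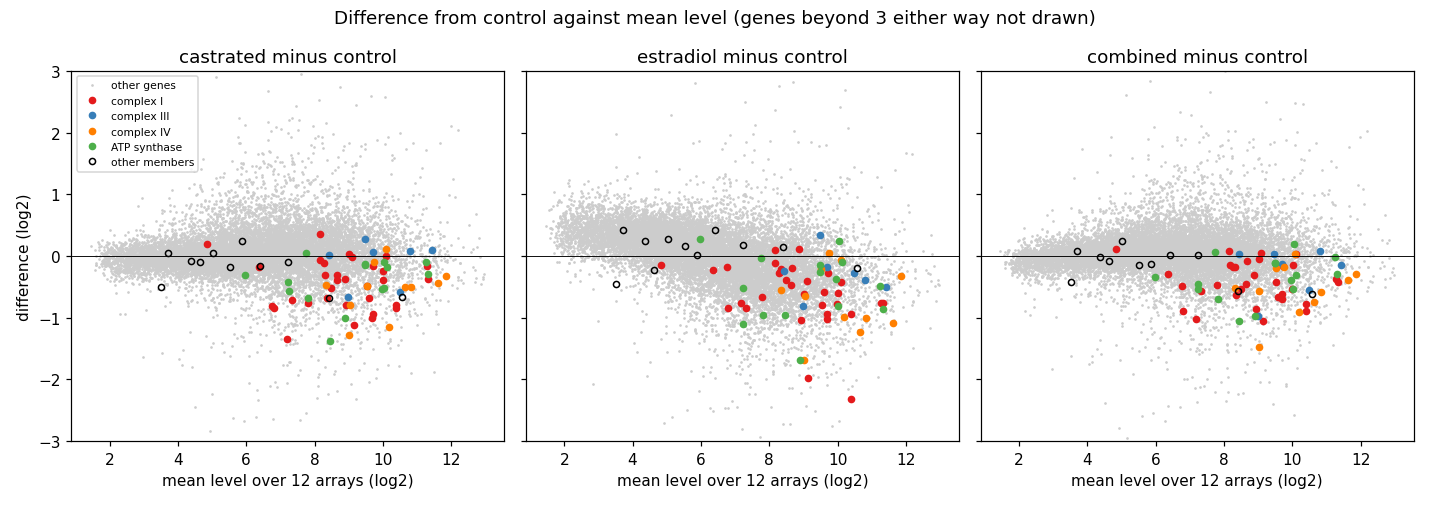
Difference from control (log2, vertical axis) against mean value over 12 arrays (log2, horizontal axis) for castrated, estradiol and combined animals; grey points are other genes and coloured points are members by complex. Bright members sit mostly below 0 in each panel, with medians over all members of -0.38, -0.40 and -0.35, while the bright end of the grey cloud also tilts below 0 in the estradiol panel, where its brightest 20% have a median of -0.31.

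The number of members that fell rested on which arrays entered the fit. Without estradiol arrays 1 and 2 it was 34 after castration and 35 after both, beside 16.6% and 14.5% of all genes called either way. All 11 and all 9 of the earlier calls were among the 34 and the 35. The difference after estradiol then rests on 1 estradiol array, and its median over the members was -0.28. For castration the number was 5, 6 and 6 without control array 1, 2 or 3. It was 7, 5 and 6 without castrated array 1, 2 or 3. Without estradiol array 1, 2 or 3 it was 30, 20 and 18. All genes called either way were 3.2%, 2.49% and 2.75%, then 3.24%, 4.15% and 3.09%, then 12.3%, 6.67% and 7.85%, in the same order. For estradiol the number was 5, 6 and 8 without control array 1, 2 or 3, beside 2.98%, 2.69% and 2.98% of all genes. Without estradiol array 3 there were 37 calls, 34 lower and 3 higher, beside 36.7% of all genes called either way. For the combined treatment the number was 4, 3 and 5 without control array 1, 2 or 3. It was 5 without castrated array 3, 22 without estradiol array 1, and 2, 5 and 4 without combined array 1, 2 or 3. All genes called either way were 2.67%, 1.83% and 2.06%, then 3.55%, then 10.2%, then 1.99%, 3.05% and 1.9%. Cox7b and Ndufb4 under each treatment, Ndufv3 after castration and after estradiol, and Atp5mc1 and Cox6a1 after castration passed in all 21 alternative analyses, which changed the arrays, the normalization, the probe sets or the model.

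**Figure D2:**
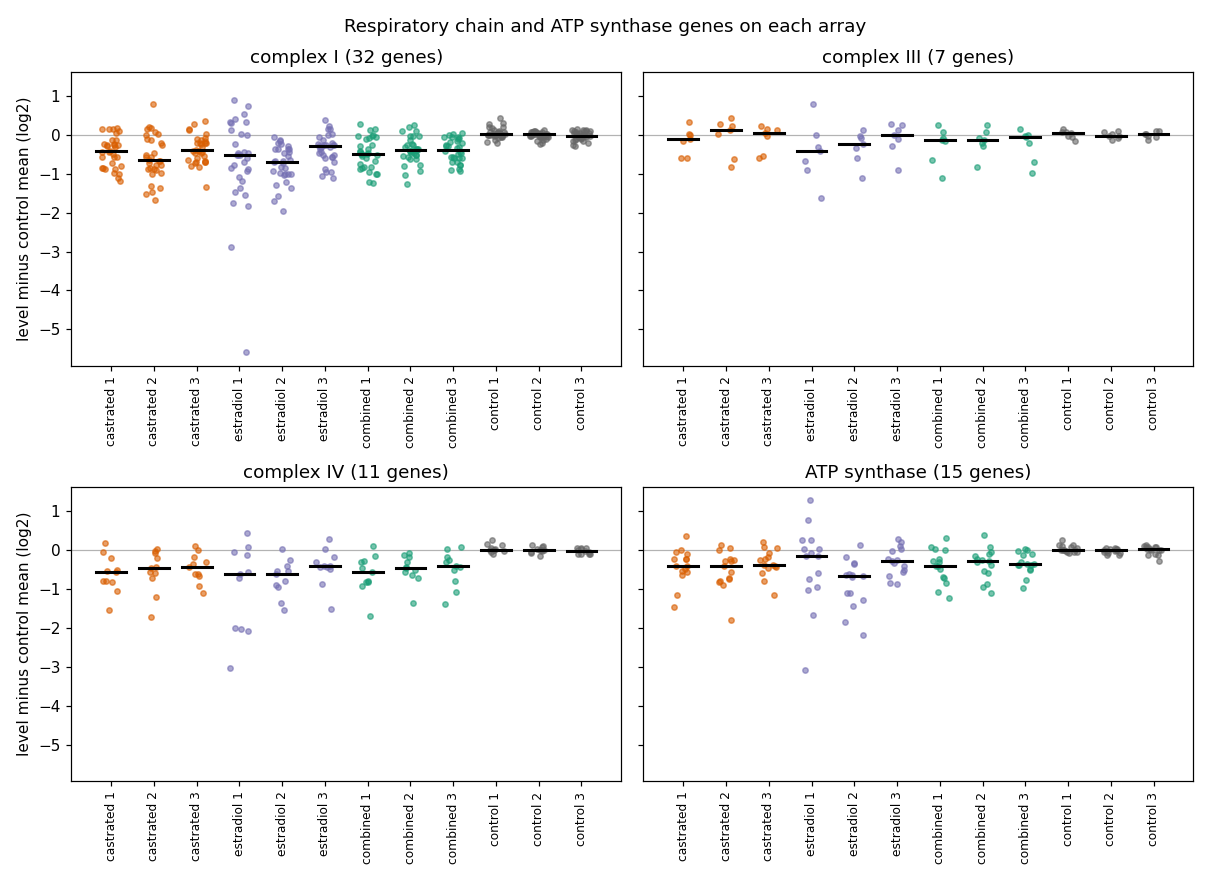
Value of each member minus its control mean (log2, vertical axis) on each of the 12 arrays, by complex; points are genes and bars are medians. In complexes I and IV every treated array has its median below 0, with lowest medians of -0.70 on estradiol array 2 for complex I and -0.63 on estradiol array 1 for complex IV, while the medians of complex III stay closer to 0.

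Promoters of the members were searched for motifs of the factors named above, since many members moved together. RefSeq promoters of the GRCr8 build, 300 bases from 250 before to 50 after the gene start, were at hand for 66 of 76 members. Both strands were read. The NRF1 motif GCGCATGCG, whose palindromic copies also match on the other strand, was in 7 of 66 (10.6%), against 2.43% of the 12536 genes tested that had an entry and 1.52% of all 33469 promoters. The ETS motif CCGGAAGT was in 7 of 66 (10.6%), against 5.91% and 3.81%, and the YY1 motif AAGATGGCG in 8 of 66 (12.1%), against 2.57% and 1.73%. The TATA box TATAAA was in 5 of 66 (7.58%), against 11.6% and 14.2%. Of the 19 members that fell under at least 1 treatment 15 had an entry, and these motifs were in 1, 2, 2 and 1 of them, against 6, 5, 6 and 4 of the 51 others.

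The promoters of 4 members are shown in the direction of transcription with motif matches in capitals, chosen as the gene with the smallest adjusted p (Cox7b), a falling and a non-falling subunit of complex III (Uqcrq and Uqcrc1), and the falling gene with an NRF1 match (Ndufa11). They lie at chrX:75148786-75149085 on the plus strand, chr10:38089929-38090228 on the minus strand, chr8:118467973-118468272 on the plus strand and chr9:1637364-1637663 on the plus strand. Cox7b held no match. The ETS match of Uqcrq began 22 bases before the start, the NRF1 match of Uqcrc1 39 bases and its YY1 match 1 base before it, and the overlapping NRF1 matches of Ndufa11 between 97 and 90 bases before it. A match describes letters in this window and is not a bound site.
Cox7b: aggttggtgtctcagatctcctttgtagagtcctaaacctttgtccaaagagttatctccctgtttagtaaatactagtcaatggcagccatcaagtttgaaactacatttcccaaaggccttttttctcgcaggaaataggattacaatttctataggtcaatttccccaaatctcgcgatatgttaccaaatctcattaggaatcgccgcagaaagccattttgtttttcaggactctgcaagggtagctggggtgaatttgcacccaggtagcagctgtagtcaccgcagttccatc
Uqcrq: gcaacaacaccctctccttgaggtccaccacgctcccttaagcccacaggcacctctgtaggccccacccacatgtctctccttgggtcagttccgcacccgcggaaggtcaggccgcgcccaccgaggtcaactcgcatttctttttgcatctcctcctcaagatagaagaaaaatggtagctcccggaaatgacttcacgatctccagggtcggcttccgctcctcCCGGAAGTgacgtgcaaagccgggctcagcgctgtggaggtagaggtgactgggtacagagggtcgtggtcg
Uqcrc1: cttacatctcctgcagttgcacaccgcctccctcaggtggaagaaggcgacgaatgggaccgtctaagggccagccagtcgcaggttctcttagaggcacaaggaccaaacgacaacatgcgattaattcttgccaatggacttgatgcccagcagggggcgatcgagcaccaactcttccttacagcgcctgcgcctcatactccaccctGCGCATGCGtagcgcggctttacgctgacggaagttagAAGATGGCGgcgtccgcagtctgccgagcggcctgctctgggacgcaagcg
Ndufa11: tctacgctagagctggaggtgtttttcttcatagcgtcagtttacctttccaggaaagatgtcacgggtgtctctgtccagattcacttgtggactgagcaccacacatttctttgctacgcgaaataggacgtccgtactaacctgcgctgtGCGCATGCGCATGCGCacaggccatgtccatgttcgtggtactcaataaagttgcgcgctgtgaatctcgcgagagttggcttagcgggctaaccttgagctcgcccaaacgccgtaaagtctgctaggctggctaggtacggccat

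Complex I, which oxidizes NADH, had 5 of 32 subunits lower after castration, 6 after estradiol and 3 after both. All of these were accessory subunits. The 26 accessory subunits had a median difference of -0.51 after castration, -0.61 after estradiol and -0.47 after both. None of the 6 measured core subunits passed, at medians of -0.06, -0.41 and -0.07, and 1, 3 and 1 of them had an unadjusted p under 0.05. The difference between core and accessory subunits was not tested. On single arrays the median of all 32 stood at -0.43, -0.66 and -0.40 from the control mean in castrated animals, -0.52, -0.70 and -0.30 in estradiol animals and -0.50, -0.40 and -0.38 in combined animals, against 0.01, 0.00 and -0.03 in controls.

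Among the accessory subunits, Ndufb4, of the proton-pumping membrane arm, fell under all 3 treatments. It stood at 8.71, 8.83 and 8.90 on the castrated arrays, 8.74, 8.31 and 8.64 on the estradiol arrays and 8.72, 8.66 and 8.84 on the combined arrays, against 9.65, 9.48 and 9.68 on the control arrays. The highest treated array lay 0.58 below the lowest control. Its differences were -0.79 ± 0.15, -1.04 ± 0.15 and -0.86 ± 0.15 (log2 ± SE, limma adjusted p = 0.00724, 0.00129 and 0.00436), and its calls held in all 21 alternatives for each treatment. A further probe set of Ndufb4 gave -0.82, -1.09 and -0.94.

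Ndufv3, an accessory subunit of the module that binds NADH, stood at 10.18, 10.16 and 10.22 on the castrated arrays, 10.11, 10.00 and 10.15 on the estradiol arrays and 10.02, 10.41 and 10.33 on the combined arrays, against 11.14, 11.06 and 10.89 on the control arrays. The 9 treated arrays lay close together and wholly below the controls. The falls were -0.85 ± 0.15, -0.95 ± 0.15 and -0.78 ± 0.15 (limma adjusted p = 0.0037, 0.00199 and 0.00708), and the first 2 held in all 21 alternatives, the last in 20. A dimmer probe set of the gene gave smaller differences of -0.46, -0.71 and -0.42.

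Ndufs5, an accessory subunit on the intermembrane side of the membrane arm, stood at 9.08, 8.72 and 9.36 on the castrated arrays, 7.29, 8.21 and 9.12 on the estradiol arrays and 8.97, 9.13 and 9.27 on the combined arrays, against 10.37, 10.16 and 10.01 on the control arrays. All treated arrays lay below the controls, and estradiol arrays 1 and 2 lay below all others. Estradiol lowered it 3.93-fold (-1.97 ± 0.34, limma adjusted p = 0.00393), the largest fall of any member that passed. Without estradiol arrays 1 and 2 its difference was -1.06 and it still passed (adjusted p = 0.0240). The means after castration and after both treatments stood -1.13 and -1.05 from control without passing (adjusted p = 0.0747 and 0.112). The other probe set of Ndufs5 gave -1.04 after castration, -1.69 after estradiol and -0.95 after both.

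Ndufb6, a subunit of the membrane arm, had the largest difference from control of any member and did not pass. It stood at 10.55, 10.53 and 10.68 on the castrated arrays, 5.80, 10.72 and 10.69 on the estradiol arrays and 10.42, 10.59 and 10.50 on the combined arrays, against 11.38, 11.46 and 11.32 on the control arrays. Estradiol array 1 alone lay at 5.80, while every other treated array lay between 10.42 and 10.72, below all controls. The difference after estradiol was -2.32 ± 0.90 (limma adjusted p = 0.113), and without estradiol array 1 it was -0.69 and passed (adjusted p = 0.00447). Because the fit pools the spread, that array also widened the errors after castration (-0.80 ± 0.90, adjusted p = 0.837) and after both treatments (-0.89 ± 0.90, adjusted p = 0.841). Without estradiol arrays 1 and 2 these passed, at an adjusted p of 0.000287 after castration and 0.000173 after both.

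Ndufa1, a small membrane-arm subunit, stood at 6.78, 6.45 and 6.63 on the castrated arrays, 7.99, 6.74 and 6.86 on the estradiol arrays and 6.72, 6.71 and 7.38 on the combined arrays, against 8.24, 7.73 and 7.93 on the control arrays. Castration lowered it 2.55-fold (-1.35 ± 0.29, limma adjusted p = 0.0161). The castrated and combined arrays lay below every control, whereas estradiol array 1, at 7.99, lay among them. Ndufb9, of the same arm, stood at 9.35, 9.04 and 9.64 on the castrated arrays, 8.98, 9.51 and 9.75 on the estradiol arrays and 9.49, 9.83 and 9.66 on the combined arrays, against 10.43, 10.43 and 10.20 on the control arrays. It fell after castration (-1.01 ± 0.21, adjusted p = 0.0122) and estradiol (-0.94 ± 0.21, adjusted p = 0.017), and stood -0.69 ± 0.21 from control after both (adjusted p = 0.0891), with no overlap in any of the 3.

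Ndufa11, also of the membrane arm, fell little, by 0.53 after castration and by 0.54 after both treatments on the log2 scale (limma adjusted p = 0.0459 and 0.0493). Its values were 8.44, 8.14 and 8.42 on the castrated arrays, 8.35, 8.48 and 8.55 on the estradiol arrays and 8.27, 8.44 and 8.25 on the combined arrays, against 8.79, 8.88 and 8.90 on the control arrays. The groups did not overlap, but both calls lay near the threshold and held in 9 and 11 of 21 alternatives. Ndufb5 and Ndufb8, membrane-arm subunits named after their values were seen, fell after estradiol alone among these tests, by 0.79 and 0.85 (adjusted p = 0.00683 and 0.0448), and stood -0.50 and -0.71 from control after castration without passing. The fall of Ndufb5 held in 19 of 21 alternatives and that of Ndufb8 in 8, with a difference of -0.49 for Ndufb8 without estradiol array 2 (adjusted p = 0.0512).

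Of the 6 measured core subunits, Ndufv1 and Ndufs7 lay nearest to control after castration. Ndufv1, which binds NADH and flavin, had a difference of -0.02 ± 0.17 after castration and 0.05 ± 0.17 after both. Ndufs7, which holds the last iron-sulfur cluster before ubiquinone, had -0.01 ± 0.27 and 0.04 ± 0.27. Both lay lower after estradiol, at -0.41 ± 0.17 and -0.42 ± 0.27, without passing (limma adjusted p = 0.136 and 0.293). Ndufs8, another iron-sulfur subunit, had the lowest mean of the 6 against control after castration, -0.76 ± 0.23, and did not pass (adjusted p = 0.0712). At the other end Ndufs1, the largest iron-sulfur subunit, stood at 8.21, 8.86 and 8.21 on the castrated arrays, all above 8.01, 8.09 and 8.13 on the control arrays (0.35 ± 0.21, adjusted p = 0.492). Ndufv2 had the lowest difference of the 6 after estradiol and after both, -0.79 and -0.53, without passing. Estradiol array 1 lay at 8.88 for it, against 10.05 and 9.99 on arrays 2 and 3. The highest treated array of Ndufv2 lay 0.20 below the lowest control, and that of Ndufs8 0.37 below.

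The remaining complex I subunits ranged widely and did not pass. Ndufc2, with the brightest probe set of the complex, stood at -0.37, -0.76 and -0.43 after castration, estradiol and both. Ndufa10, the dimmest, lay at 5.70, 3.10 and 5.17 on the estradiol arrays, against 5.10, 4.79 and 4.51 on the control arrays, which overlapped. Ndufb11, Ndufab1, Ndufa2 and Ndufb2 had lower means after castration, from -0.93 to -0.69, at adjusted p-values between 0.0505 and 0.094. Ndufa12, Ndufb3 and Ndufs4 lay between -0.16 and 0.03 there.

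Complex III, which passes electrons from ubiquinol to cytochrome c, had 2 of 7 subunits lower after castration, 1 after estradiol and 2 after both, all from the small subunits Uqcrq and Uqcr11. Uqcrq, a small subunit of the membrane domain, stood at 9.01, 8.78 and 9.01 on the castrated arrays, 9.19, 8.48 and 8.70 on the estradiol arrays and 8.48, 8.78 and 8.62 on the combined arrays, against 9.64, 9.70 and 9.47 on the control arrays. Every treated array lay below every control. It fell by 0.67 after castration, 0.81 after estradiol and 0.97 after both on the log2 scale (SE 0.18 each, limma adjusted p = 0.0476, 0.0178 and 0.00718). The fall after castration held in 9 of 21 alternatives, that after estradiol in 17 and that after both in 19.

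Uqcr11, the smallest subunit, stood at 10.25, 10.22 and 10.31 on the castrated arrays, 10.54, 10.62 and 10.56 on the estradiol arrays and 10.19, 10.54 and 10.14 on the combined arrays, against 10.93, 10.82 and 10.79 on the control arrays. It fell after castration (-0.59 ± 0.14, limma adjusted p = 0.0278) and after both treatments (-0.56 ± 0.14, adjusted p = 0.0444), in 13 and 11 of 21 alternatives. The estradiol arrays lay between the castrated and the control arrays, at -0.27 ± 0.14 from control (adjusted p = 0.208).

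The other 5 complex III genes gave differences from control between 0.02 and 0.27 after castration and between -0.50 and 0.34 after estradiol. Uqcrfs1, the Rieske iron-sulfur protein, stood at 8.48, 8.49 and 8.52 on the castrated arrays and 8.55, 8.54 and 8.43 on the combined arrays, against 8.54, 8.39 and 8.51 on the control arrays. These overlapped fully. Uqcrc1, a core protein facing the matrix, stood at 9.63, 9.58 and 9.54 on the castrated arrays, against 9.15, 9.39 and 9.40 on the control arrays. It is among the 2 members whose castrated arrays lay wholly above the controls (0.27 ± 0.19, limma adjusted p = 0.625). Uqcrb, the ubiquinone-binding subunit, stood at 9.93, 11.69 and 11.57 on the estradiol arrays, against 11.52, 11.59 and 11.58 on the control arrays. Estradiol array 1 lay far below the others. The median over the 7 genes was 0.06 after castration, -0.27 after estradiol and -0.13 after both.

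Complex IV, cytochrome c oxidase, gave the largest share of falling subunits among the complexes under estradiol, 4 of 11, with 3 of 11 after castration and 3 after both. Its medians were -0.49, -0.65 and -0.52. Cox7b, a small subunit of the membrane domain, had the smallest adjusted p of any member in all 3 comparisons with control. It stood at 8.59, 8.93 and 9.01 on the castrated arrays, 8.09, 8.60 and 8.61 on the estradiol arrays and 8.42, 8.77 and 8.74 on the combined arrays, against 10.10, 10.25 and 10.03 on the control arrays. The highest treated array was 1.03 below the lowest control. The falls were 2.44-fold after castration (-1.29 ± 0.18, limma adjusted p = 0.000972), 3.23-fold after estradiol (-1.69 ± 0.18, adjusted p = 0.000151) and 2.79-fold after both (-1.48 ± 0.18, adjusted p = 0.00035). All 3 calls held in all 21 alternatives.

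Cox6a1, a regulatory subunit of the widely expressed form of the enzyme, also fell under each treatment. Its values were 10.14, 9.23 and 10.02 on the castrated arrays, 10.22, 9.59 and 10.08 on the estradiol arrays and 10.03, 10.22 and 9.87 on the combined arrays, against 10.98, 10.88 and 11.00 on the control arrays. Castrated array 2 was the lowest, and no treated array reached the controls. The falls were -1.16 ± 0.23, -0.99 ± 0.23 and -0.91 ± 0.23 (limma adjusted p = 0.00987, 0.0216 and 0.0415), of which that after castration held in all 21 alternatives, the others in 14 and 12.

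Cox5b, a zinc-binding subunit, fell after estradiol and after both treatments by a small but even amount. It stood at 8.17, 8.29 and 8.29 on the castrated arrays, 8.09, 8.09 and 8.29 on the estradiol arrays and 8.15, 8.26 and 8.19 on the combined arrays, against 8.71, 8.67 and 8.77 on the control arrays. The groups did not overlap, and the differences were -0.56 ± 0.13 and -0.52 ± 0.13 (limma adjusted p = 0.0209 and 0.0405), beside -0.47 ± 0.13 after castration (adjusted p = 0.054). Cox7c, another small subunit, stood at 8.48, 8.82 and 8.93 on the castrated arrays, 8.96, 8.58 and 9.13 on the estradiol arrays and 8.71, 8.98 and 9.23 on the combined arrays, against 9.79, 9.39 and 9.45 on the control arrays. It fell after castration (-0.80 ± 0.20, adjusted p = 0.0312), with -0.65 ± 0.20 after estradiol and -0.57 ± 0.20 after both, neither of which passed (adjusted p = 0.0614 and 0.151).

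Cox6c stood at 10.01, 11.31 and 11.69 on the estradiol arrays, against 12.21, 12.08 and 11.99 on the control arrays. The fall after estradiol (-1.09 ± 0.31, limma adjusted p = 0.0473) was smallest on array 3. Without array 1 it was -0.60 and passed (adjusted p = 0.0245), without array 2 it was -1.25 and did not (adjusted p = 0.0528), and without arrays 1 and 2 it was -0.41 and did not pass (adjusted p = 0.158). Ndufa4, first assigned to complex I and now known as a subunit of complex IV, showed a like spread, at 8.24, 11.02 and 10.83 on the estradiol arrays, against 11.26, 11.33 and 11.21 on the control arrays. It did not pass in any comparison (-0.50 ± 0.52, -1.24 ± 0.52 and -0.75 ± 0.52 after castration, estradiol and both).

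The other complex IV genes did not pass. Cox4i1, the largest nuclear subunit, stood at 9.18, 9.15 and 9.44 on the castrated arrays and 9.47, 9.43 and 9.77 on the combined arrays, against 9.78, 9.75 and 9.71 on the control arrays. The castrated arrays lay below the controls, while combined array 3 lay among them. Cox7a2 had means -0.50, -1.01 and -0.59 from control, with a second probe set at -0.50, -1.09 and -0.59. Its paralog Cox7a2l, which joins complexes III and IV in supercomplexes, stood at 0.10, -0.06 and 0.03. Cox5a stood at -0.09, 0.04 and -0.18, and Cox8a at -0.32, -0.33 and -0.29.

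Isoforms of complex IV that are known from other organs showed no call in these glands. Cox6a2, the heart and skeletal muscle partner of Cox6a1, lay at 5.45, 5.36 and 5.32 on the castrated arrays, 6.13, 5.87 and 5.20 on the estradiol arrays and 5.33, 5.52 and 5.41 on the combined arrays, against 5.43, 5.68 and 5.58 on the control arrays. Cox8b, that of Cox8a, lay at 3.63, 3.58 and 3.65 on the castrated arrays, 4.16, 4.18 and 3.64 on the estradiol arrays and 3.68, 3.67 and 3.62 on the combined arrays, against 3.55, 3.45 and 3.72 on the control arrays. In both, estradiol arrays 1 and 2 were the highest of all. Cox4i2, the lung isoform, Cox6b2, the testis isoform, and Cox8c, also of the testis, had differences between -0.23 and 0.27 under the 3 treatments. All 5 isoform genes lay below the median of all genes by probe set value. None of them had arrays that separated from the controls.

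**Figure D3:**
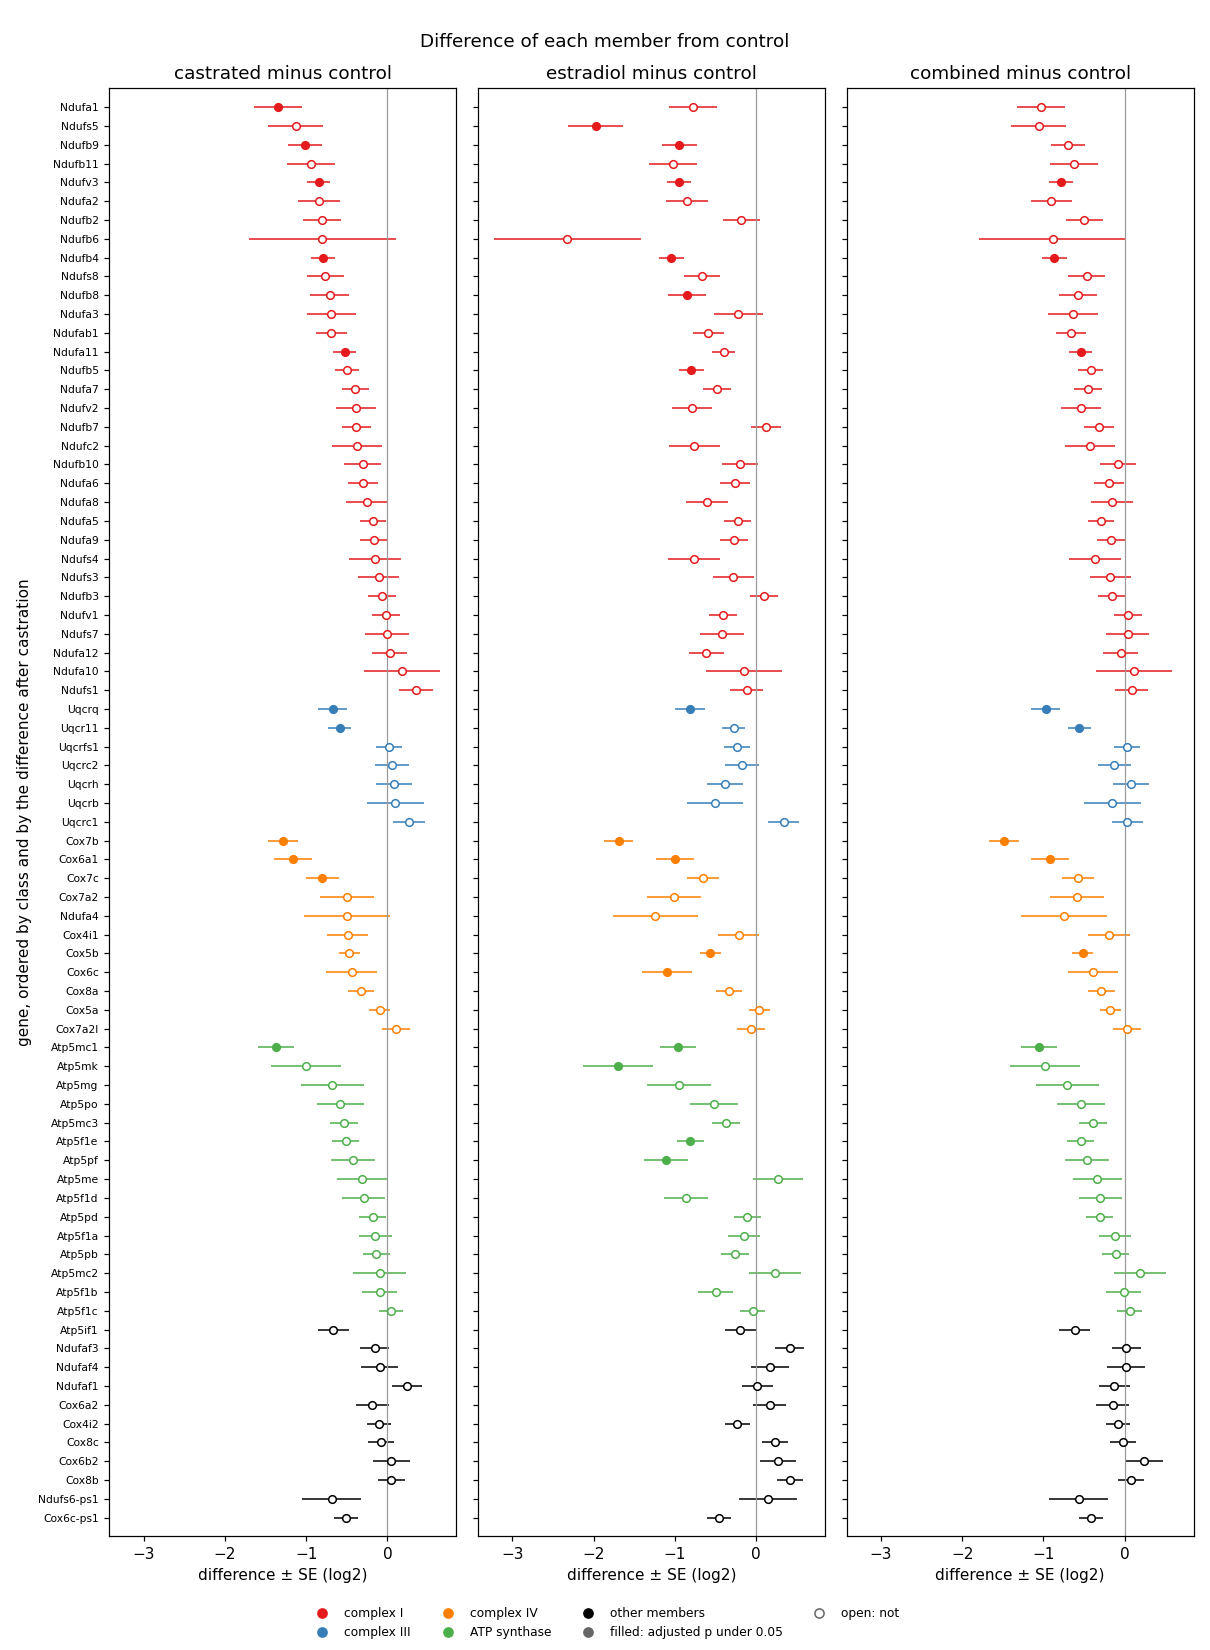
Difference from control with its standard error (log2, horizontal axis) for each of the 76 members (vertical axis), by class and in order of the difference after castration, in castrated, estradiol and combined animals; filled points passed at an adjusted p of 0.05. Filled points number 11, 15 and 9 and all lie left of 0, with Cox7b the lowest filled point of the combined panel at -1.48.

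ATP synthase had 4 of 15 subunits lower after estradiol and 1 each after castration and after both, with medians of -0.50, -0.32 and -0.33. Atp5mc1, 1 of 3 genes for the same subunit of the rotating c ring, fell under all 3 treatments. It stood at 8.14, 7.50 and 8.13 on the castrated arrays, 8.70, 7.85 and 8.45 on the estradiol arrays and 8.22, 8.19 and 8.31 on the combined arrays, against 9.42, 9.29 and 9.18 on the control arrays. Castrated array 2 lay lowest, and the treated arrays did not reach the controls. It fell 2.59-fold after castration (-1.37 ± 0.22, limma adjusted p = 0.0024), the largest fall of any member there, 1.95-fold after estradiol (-0.96 ± 0.22, adjusted p = 0.0203) and 2.07-fold after both (-1.05 ± 0.22, adjusted p = 0.0149). The call after castration held in all 21 alternatives, the others in 14 and 16.

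The paralogs of Atp5mc1 did not pass. Atp5mc2 stood at 10.30, 9.12 and 10.15 on the castrated arrays, against 10.22, 9.98 and 9.67 on the control arrays, which overlapped, and its means were -0.10, 0.24 and 0.19 from control. Atp5mc3 had -0.53, -0.37 and -0.39 (limma adjusted p = 0.094, 0.16 and 0.297).

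Atp5mk, a small membrane subunit also known as DAPIT, stood at 8.34, 9.09 and 9.01 on the castrated arrays, 6.73, 8.70 and 8.93 on the estradiol arrays and 8.59, 8.87 and 9.04 on the combined arrays, against 9.92, 9.85 and 9.67 on the control arrays. Estradiol array 1 lay lowest, and all treated arrays lay below the controls. It fell 3.24-fold after estradiol (-1.69 ± 0.43, limma adjusted p = 0.0316), and its second probe set gave -1.78. Without estradiol array 1 the difference was -1.001 and passed (adjusted p = 0.0133), and without arrays 1 and 2 it was -0.89 and did not pass (adjusted p = 0.0889).

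Atp5pf, of the peripheral stalk, stood at 6.68, 5.87 and 7.32 on the estradiol arrays, against 7.73, 7.60 and 7.85 on the control arrays (-1.10 ± 0.27, limma adjusted p = 0.0274). The 3 estradiol arrays spanned 1.45 log2 units. Without array 2 the difference was -0.72 (adjusted p = 0.0469), and without arrays 1 and 2 it was -0.41 and did not pass (adjusted p = 0.217). Atp5f1e, the epsilon subunit of the central stalk, was more even, at 9.73, 9.38 and 9.92 on the estradiol arrays, against 10.61, 10.48 and 10.37 on the control arrays (-0.81 ± 0.16, adjusted p = 0.0104). It also had castrated and combined arrays wholly below the controls, at -0.51 and -0.54 without passing (adjusted p = 0.0983 and 0.0892).

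The subunits of the catalytic head did not pass. Atp5f1a and Atp5f1b, the alpha and beta subunits that form it, had differences of -0.15 ± 0.20 and -0.09 ± 0.21 after castration, -0.15 ± 0.20 and -0.50 ± 0.21 after estradiol and -0.12 ± 0.20 and -0.01 ± 0.21 after both. Of the central stalk, Atp5f1c, the gamma subunit, stood at 0.04, -0.04 and 0.06. Atp5f1d, the delta subunit, stood at -0.29, -0.86 and -0.30 from control. Of the stalk and membrane subunits that remain, Atp5po and Atp5mg had means -0.58 and -0.68 from control after castration, and Atp5pb and Atp5pd -0.13 and -0.18, with no call under any treatment. Atp5me, the dimmest, stood at 7.34, 5.88 and 5.80 on the estradiol arrays, against 6.06, 6.05 and 6.10 on the control arrays, with estradiol array 1 alone above them.

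Atp5if1 encodes the protein that blocks ATP synthase from running in reverse. It stood at 10.20, 10.40 and 10.20 on the castrated arrays, 11.22, 10.54 and 10.45 on the estradiol arrays and 10.34, 10.20 and 10.42 on the combined arrays, against 10.99, 11.03 and 10.78 on the control arrays. The castrated and combined arrays lay below every control and the estradiol arrays overlapped them. The differences were -0.66 ± 0.19, -0.19 ± 0.19 and -0.61 ± 0.19 (limma adjusted p = 0.0635, 0.487 and 0.101). Without estradiol arrays 1 and 2 it passed after castration and after both (adjusted p = 0.00214 and 0.00373). The complex I assembly factors Ndufaf1, Ndufaf3 and Ndufaf4, which help build the complex and are no part of it, lay between -0.16 and 0.24 from control after castration, between 0.02 and 0.41 after estradiol and between -0.12 and 0.02 after both. None passed.

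**Figure D4:**
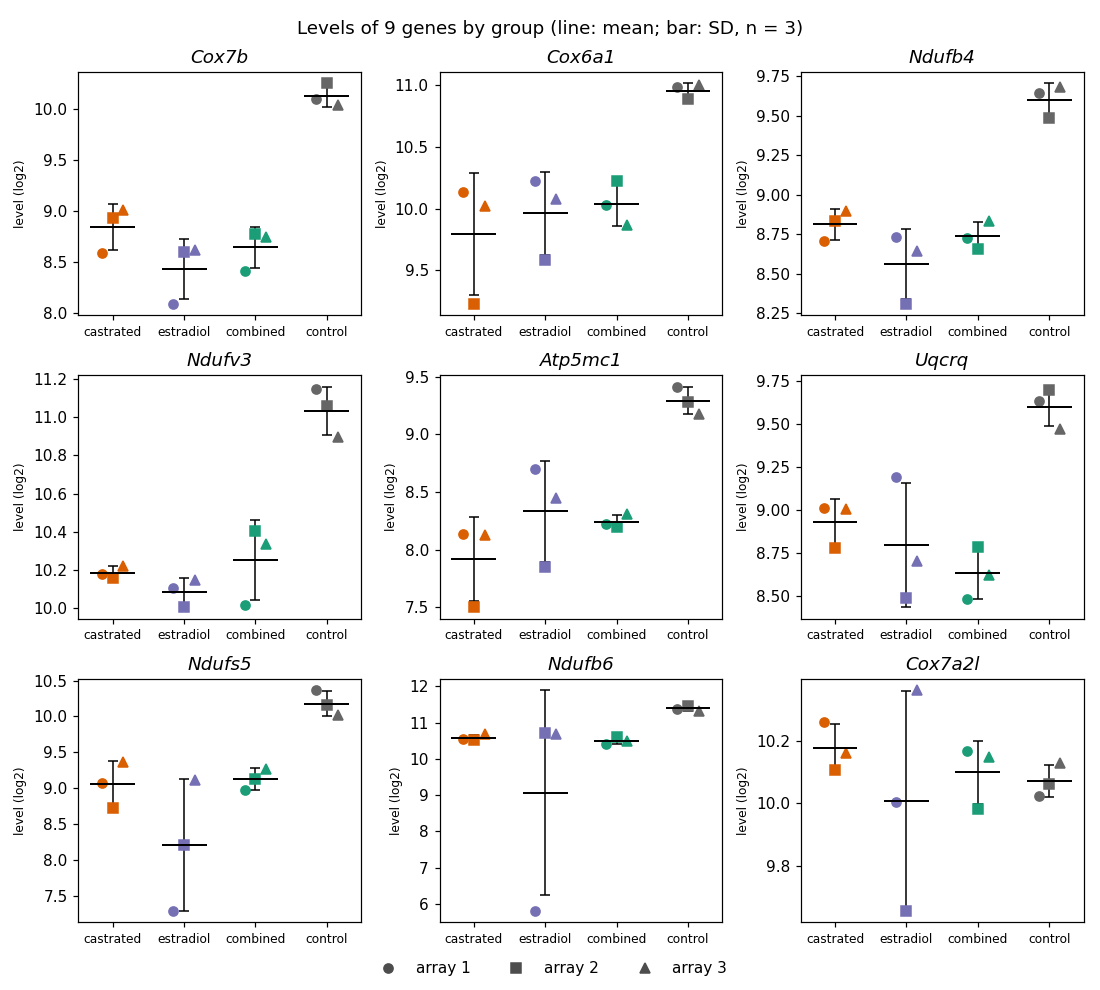
Values of 9 genes (log2, vertical axes) on each array by group; marker shapes are array numbers, lines are means and bars are SD with 3 arrays a group. For Cox7b, Cox6a1, Ndufb4, Ndufv3, Atp5mc1, Uqcrq, Ndufs5 and Ndufb6 every treated point lies below every control point, Ndufb6 has a single estradiol point at 5.80, and Cox7a2l overlaps between groups.

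No member differed between treated groups at an adjusted p of 0.05. For estradiol against castrated animals, limma called 0 members and 0% of all genes. An unadjusted p under 0.05 was found for 13 of 76 members and 3956 of 14506 genes. For combined against castrated animals it called 0 members and 0% of all genes, with 0 of 76 and 153 of 14506 at an unadjusted p under 0.05. For combined against estradiol animals it called 0 members and 0% of all genes, with 10 of 76 and 2742 of 14506 at an unadjusted p under 0.05. The medians over the members were -0.09, 0.02 and 0.08, and each turned its sign when 1 array was left out, to 0.062 without estradiol array 2, to -0.013 without combined array 2 and to -0.079 without estradiol array 2. With array quality weights 4 of 76 members passed for estradiol against castrated animals, beside 11.2% of all genes. For combined against estradiol animals 1 of 76 passed, beside 3.37% of all genes. Without estradiol array 3 these were 16 and 14 of 76, beside 37.3% and 28.6% of all genes. The largest difference between estradiol and castrated animals was that of Ndufb6 (-1.52 ± 0.90, adjusted p = 0.264), followed on the side of lower values by Ndufs5 (-0.85 ± 0.34, adjusted p = 0.157). For Cox7b the combined animals stood -0.20 ± 0.18 from castrated and 0.21 ± 0.18 from estradiol animals.

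For 59 of 76 members the combined difference from control was higher than the sum of the castrated and the estradiol differences. So it was for 6424 of all 14506 genes and for 2054 of the 2901 genes of the brightest 20%. This interaction, which is what estradiol did in castrated rats less what it did in intact rats, had a median of 0.47 over the members, 0.28 over the brightest 20% of genes and -0.06 over all genes. It passed for 3 members, all positive, where it passed for 1.1% of all genes and was positive in 0.779%. In castrated animals estradiol gave differences of -0.20 ± 0.18 for Cox7b, 0.07 ± 0.15 for Ndufv3 and -0.07 ± 0.15 for Ndufb4, against -1.69 ± 0.18, -0.95 ± 0.15 and -1.04 ± 0.15 in intact animals. The interactions were 1.50 ± 0.26, 1.01 ± 0.21 and 0.97 ± 0.21 (limma adjusted p = 0.0145, 0.0335 and 0.0471). That of Cox7b passed in 18 of 20 alternatives, those of Ndufv3 and Ndufb4 in 8 and 7. The count was 1, 0 and 1 without control array 1, 2 or 3, and 1 without each castrated array in turn. It was 9 without estradiol array 1, 18 without estradiol array 3, and 0 and 1 without combined array 2 or 3. All genes called either way were 0.607%, 0.434% and 0.476%, then 0.682%, 0.682% and 0.579%, then 2.68%, then 11.6%, then 0.448% and 0.641%. The control arrays enter each of these terms, so the interaction is not independent of the 3 falls.

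Each estradiol array was also read by itself. The median member stood -0.41, -0.62 and -0.28 from the control mean on estradiol arrays 1, 2 and 3, against 0.13, 0.01 and 0.02 for the median of all genes. Below the lowest control lay 45, 65 and 52 of 76 members on these arrays, beside 37.4%, 40.3% and 30.3% of all genes. Estradiol array 3, whose spread of values was like that of the other 9 arrays, had a median near those of the castrated arrays (-0.37, -0.45 and -0.33) and the combined arrays (-0.41, -0.32 and -0.32). That array also had a summed linear value of 838 over 7 seminal vesicle markers, against 108 to 234 on the other 11 arrays, and its part in these values was not tested. On castrated arrays 53, 52 and 56 members lay below the lowest control, beside 28.4%, 34.4% and 30.9% of all genes. On combined arrays these were 55, 55 and 53 members, beside 28.3%, 26.0% and 31.4% of all genes.

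Estradiol array 1 differed from array 3 in both directions. It was lower in 38 members and higher in 38, by more than 1 in 14 and 4 of them, between -4.88 for Ndufb6 and 1.54 for Atp5me, and it had 22 members above the highest control. Estradiol array 2 was lower than array 3 in 63 members, by more than 1 in 4, with Ndufa10 lowest at -2.07. The median SD of a member within a group was 0.40 among estradiol arrays, against 0.17 among castrated, 0.12 among combined and 0.10 among control arrays, and that of all genes was 0.36, 0.16, 0.12 and 0.12. By complex, complex III had medians of -0.11, 0.11 and 0.04 on the castrated, -0.41, -0.23 and 0.00 on the estradiol and -0.14, -0.13 and -0.07 on the combined arrays. Complex IV had -0.56, -0.45 and -0.43 on the castrated, -0.63, -0.62 and -0.41 on the estradiol and -0.56, -0.46 and -0.41 on the combined arrays. ATP synthase had -0.41, -0.41 and -0.38 on the castrated, -0.15, -0.66 and -0.29 on the estradiol and -0.40, -0.28 and -0.36 on the combined arrays. The medians of the estradiol arrays were thus the most spread of the 3 treated groups in complexes III and IV and ATP synthase. The same held for complex I, whose medians are given above.

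Other genes of mitochondrial energy metabolism were read in the same fit. Of all genes 2.36%, 5.48% and 2.21% fell after castration, estradiol and both, and 3.17%, 2.51% and 2.12% rose. Complex II and the mobile electron carriers had 0 of 9 measured genes called under any treatment, with 1, 3 and 2 at an unadjusted p under 0.05 after castration, estradiol and both, and medians of 0.04, -0.33 and -0.09. Sdha, the flavin subunit of succinate dehydrogenase, stood at 0.22 ± 0.16 after castration and 0.23 ± 0.16 after both. Cycs, cytochrome c, stood at -0.29 ± 0.18 after castration, -0.31 ± 0.18 after estradiol and -0.43 ± 0.18 after both. Of 20 assembly factors of complexes III and IV and ATP synthase, Coa3, of complex IV, fell after castration (-0.67 ± 0.17, limma adjusted p = 0.0348) and estradiol (-0.72 ± 0.17, adjusted p = 0.0222), and Bcs1l, which inserts the Rieske protein into complex III, rose after estradiol (0.69 ± 0.18, adjusted p = 0.0392). None of the 20 passed after both treatments, with 6 at an unadjusted p under 0.05.

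Of 18 regulators of mitochondrial biogenesis only the nuclear receptor Ppard passed. It rose by 1.79 ± 0.32 after castration, 1.23 ± 0.32 after estradiol and 1.81 ± 0.32 after both (limma adjusted p = 0.0048, 0.035 and 0.00485). Nrf1, Gabpa, a subunit of GABP, and Tfam, which packages and transcribes mitochondrial DNA, stood at 0.10, 0.13 and 0.21 after castration without passing. Among 10 carriers and porins, the uncoupling protein Ucp2 fell after castration (-1.90 ± 0.25, adjusted p = 0.000512) and after both (-1.09 ± 0.25, adjusted p = 0.023), and Ucp3 fell after castration (-0.95 ± 0.16, adjusted p = 0.0037). Thus 2 of 10 fell after castration and 1 of 10 after both, where 2.36% and 2.21% of all genes fell. None of the 10 passed after estradiol, with 3 at an unadjusted p under 0.05. Of 22 genes of the citric acid cycle, the cytosolic isocitrate dehydrogenase Idh1 rose after castration (0.80 ± 0.15, adjusted p = 0.00791) and after both (0.61 ± 0.15, adjusted p = 0.0405), while Ogdh and Pdhb, of the oxoglutarate and pyruvate dehydrogenase complexes, fell after estradiol (-0.90 and -0.61, adjusted p = 0.0365 and 0.0496).

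Other large families of housekeeping complexes were set beside the members. Of 68 mitochondrial ribosomal protein genes 1, 3 and 2 fell after castration, estradiol and both and 0, 1 and 0 rose, with medians of -0.08, -0.20 and -0.06. Of 68 cytosolic ribosomal protein genes none fell and Rpl23 rose after estradiol, with medians of -0.07, -0.02 and 0.17. Of 47 proteasome genes 0, 5 and 1 fell and 1, 0 and 0 rose, with medians of -0.09, -0.30 and -0.12. The members' medians of -0.38, -0.40 and -0.35 lay below each of these, and the difference between families was not tested.

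Markers of other cells moved with the treatments as well. The shares of all genes that rose were 3.17%, 2.51% and 2.12% after castration, estradiol and both, and 2.36%, 5.48% and 2.21% fell. Of 20 macrophage and dendritic cell markers 12 rose after castration, 4 after estradiol and 8 after both, and none fell. Their summed linear value ranged over 8074 to 13572 on castrated, 5343 to 10423 on estradiol and 7982 to 10591 on combined arrays, against 4983 to 5900 on control arrays. Gpnmb and Cybb led after castration, at 3.26 and 1.98. Of 12 measured markers of the ventral prostate epithelium 5 rose and 2 fell after castration, 3 rose and 3 fell after estradiol, and 5 rose and 1 fell after both. Their summed linear value ranged over 28231 to 32138 on castrated, 22957 to 30392 on estradiol and 28492 to 32059 on combined arrays, against 33805 to 36036 on control arrays. Krt8, a keratin of the secretory cells, lay at 11.47 to 11.72 in castrated, 11.00 to 11.27 in estradiol and 11.17 to 11.48 in combined animals, against 10.01 to 10.43 in controls. Castrated array 2, lowest in Cox6a1 and Atp5mc1, had a summed linear value of 976 over 9 adipocyte markers, against 419 to 564 on the other 11 arrays. The part of any of these markers in the falls of the respiratory genes was not tested.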

How the data were processed

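RNA from 30 mg of rat ventral prostate was labelled as biotinylated single-stranded cDNA from 500 ng and hybridised to Affymetrix arrays, 1 array per sample and 3 per group, per the labels' protocols. The log2 values are the deposited probe set values that the authors made with Affymetrix Expression Console, per the submitters' processing notes, with no version. The sources used here name no normalization, log base or genome build, and the values were read as log2 from their range. Arrays carry no counts, and their number limits the precision: the median SE of a difference from control was 0.19.

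Of 29214 probe sets, a single gene symbol was annotated for 15310, more than 1 for 323 and no symbol for 13581, and 1 probe set that pairs a member with another symbol was left out. The 14506 genes, each by its brightest probe set, were fitted with limma 3.58.1 in R 4.3.3 with a mean for each group and all 12 arrays in the fit (residual degrees of freedom 8, prior 5.29), with Benjamini-Hochberg adjustment over all genes and a threshold of 0.05. The test was tried on simulated data. Between castrated and estradiol arrays, same-numbered deviations from the group means correlated at 0.14, 0.28 and 0.20. Over all 18 same-numbered pairs of arrays the correlations ran from -0.16 to 0.28. No label pairs the arrays, and the main fit took none as paired. A fit with the replicate number as a block again called 0 members between castrated and estradiol arrays. Plots and promoter searches used Python 3.11.15, pandas 2.3.3 and matplotlib 3.10.9.

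The members and lists were chosen with earlier results of these data known. Genes were named by rule: in each complex and comparison up to 4 members that passed, the 2 largest differences per comparison, Ndufa4, the isoform pairs, the brightest and dimmest member of each complex, and up to 2 passing genes per other list and comparison. Other members in the text, the core subunits among them, were named after their values were seen, and so were Sdha, Cycs, Nrf1, Gabpa and Tfam. Setting Atp5if1 and the pseudogene symbols apart, and shortening the NRF1 motif to 9 letters, were also decided after the annotation or the promoters had been read.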

Additional observations from a re-analysis of the deposited data

Results flagged for a closer look

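In 3 members the effect of estradiol differed between castrated and intact rats by the interaction test in limma. For Cox7b, estradiol gave a difference of -0.20 ± 0.18 in castrated rats, against -1.69 ± 0.18 in intact rats, and the interaction was 1.50 ± 0.26 (adjusted p = 0.0145). For Ndufv3 the values were 0.07 ± 0.15 in castrated rats, against -0.95 ± 0.15 in intact rats, with an interaction of 1.01 ± 0.21 (adjusted p = 0.0335). For Ndufb4 they were -0.07 ± 0.15 in castrated rats, against -1.04 ± 0.15 in intact rats, with an interaction of 0.97 ± 0.21 (adjusted p = 0.0471). All 3 combined arrays of each gene lay below all controls, as did the castrated and the estradiol arrays.

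Estradiol also gave means in opposite directions in castrated and intact rats in Atp5mc1, Atp5mc3, Cox5a, Cox6a1, Ndufb11, Ndufb8, Ndufb9 and Ndufs8. In these 8 the interaction did not pass in limma (adjusted p between 0.0682 and 0.753). They are not a full count. Ndufa1, for one, had means of 6.94 in combined against 6.62 in castrated rats, and 7.20 in estradiol against 7.97 in control rats.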

How the results depend on the processing

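The medians over members kept their sign in the 3 comparisons with control under the alternatives run, and no call reversed its direction. Medians between treated groups, where no member passed, did turn their sign: that of combined against castrated rats was -0.032 with array medians centred, and that of combined against estradiol rats was -0.077 without estradiol arrays 1 and 2 and -0.078 with quantile normalization. Counts of members that passed did not hold. Leaving out estradiol arrays 1 and 2 gave 34 after castration and 35 after both, beside 16.6% and 14.5% of all genes called either way. Medians were then 0.10 for estradiol against castrated rats and 0.29 for the interaction. Array quality weights gave 40, 27 and 44 for the 3 comparisons with control, beside 26.1%, 15.9% and 28.5% of all genes. They gave 4 for estradiol against castrated rats (11.2% of all genes), 1 for combined against estradiol rats (3.37%) and 15 for the interaction (7.25%). Fits of only the 2 groups compared gave 31, 3 and 40, beside 12.9%, 1.36% and 19.8% of all genes. Quantile normalization gave 9 after estradiol (6.76% of all genes), 8 of them among the 15, with a median of -0.22 there. It gave a median of 0.083 for estradiol against castrated rats. For the interaction it gave 1 call (1.16% of all genes) and a median of 0.28. Centring array medians gave 23 after estradiol (9.02% of all genes). A trended, robust prior gave 5 after both and 1 for the interaction, beside 4.12% and 1.01% of all genes. The cause of these shifts was not tested.

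Leaving out 1 array at a time gave 5 to 30 calls after castration, 5 to 37 after estradiol, 2 to 22 after both, 0 to 16 for estradiol against castrated rats, 0 to 14 for combined against estradiol rats and 0 to 18 for the interaction, with medians of -0.12 to 0.062 for estradiol against castrated, -0.013 to 0.049 for combined against castrated and -0.079 to 0.14 for combined against estradiol rats. At the highest of these counts 12.3%, 36.7%, 10.2%, 37.3%, 28.6% and 11.6% of all genes were called either way, in the same order. Same-numbered deviations from the group means correlated from -0.16 to 0.28 between the 4 groups, with 7 of 18 over 0.1. All 3 pairs of castrated and estradiol arrays were over 0.1. With 3 arrays a group these correlations cannot tell whether arrays of some groups were paired. With the replicate number as a block the counts were 9, 18 and 7 in the comparisons with control, 0, 0 and 0 between treated groups and 2 for the interaction. The share of all genes called in that fit is not given here, so these counts cannot be set against it. For the genes tried singly, 3623 of the values under the alternatives kept direction and side of the threshold, 203 came to pass, 191 no longer passed and 128 below the threshold changed sign.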

Other observations

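Several other marker lists were measured in the same arrays. Beside them, 2.36%, 5.48% and 2.21% of all genes fell after castration, estradiol and both, and 3.17%, 2.51% and 2.12% rose. Of 10 smooth muscle markers 0, 1 and 0 fell after castration, estradiol and both and none rose. Of 11 fibroblast and matrix markers 1, 0 and 1 rose and none fell. Of 9 endothelial markers 0, 2 and 0 fell and none rose. Of 12 skeletal muscle markers 0, 1 and 0 fell and none rose, of 9 adipocyte markers 0, 1 and 0 rose and none fell, and of 10 lymphocyte markers 1, 2 and 1 rose and none fell. Of 7 seminal vesicle markers none passed in limma, with 1 at an unadjusted p under 0.05 under each treatment, and their summed value was highest on estradiol array 3.

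Pseudogene symbols of the families were read as well. Cox6c-ps1, which shares sequence with Cox6c and whose probe set may not tell them apart, stood at -0.51 ± 0.15, -0.45 ± 0.15 and -0.42 ± 0.15 after castration, estradiol and both. Ndufs6-ps1 stood at -0.69 ± 0.36, 0.15 ± 0.36 and -0.57 ± 0.36. None of these passed.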
